A study of Mus musculus with 13 samples.

Results

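Presumptive lumbar vertebrae of E13.5 mouse embryos that lacked Tgfbr2 in Col2a-expressing cells were compared with presumptive vertebrae of control embryos. The comparison used 6 of the 13 arrays of the series, namely the 3 mutant and the 3 control vertebrae arrays as labelled. Control vertebrae carried the genotype Cre-;Tgfbr2lox/wt, so the controls had no Cre but held a floxed allele. Mutant vertebrae are labelled Cre+;Tgrbr2lox.lox, the spelling of the label, with Cre expressed from the Col2a promoter and exon 2 of Tgfbr2 flanked by loxP sites. Cre from this promoter acts in cells of the sclerotome and the cartilage derived from it, so other cells in the captured area would keep the receptor. The vertebrae were cut by laser from frozen sections after the adjacent intervertebral discs (IVD) had been taken, and both tissues came from several separate embryos of each genotype. The series also holds 3 arrays of control IVD, of the genotype of the control vertebrae, and 4 of mutant IVD, labelled Cre+;Tgfbr2lox/lox. No statement was found of which vertebrae array shares an embryo with which IVD array, or of whether an array holds 1 embryo.

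TGF-β ligands bind the type II receptor encoded by Tgfbr2, which recruits and phosphorylates the type I receptor Tgfbr1, and this in turn phosphorylates Smad2 and Smad3. These join Smad4 and enter the nucleus, where Smad complexes bind short DNA elements that hold the letters CAGAC. In the developing spine, sclerotome cells form the cartilage of the vertebral bodies and the fibrous annulus of the IVD, and vertebral chondrocytes later stop dividing, enlarge and become hypertrophic.

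The promoters of 4 genes among those with the smallest p in the comparison are shown first, 3 of genes that were higher in mutant vertebrae (Wnt4, Alcam and Lama2) and 1 of a mitotic gene that was lower (Ckap2l). Each is the RefSeq sequence of the 250 bases before the gene's start in GRCm38.p6, written 5′ to 3′ on the gene's strand. Wnt4 is at chr4:137277385-137277634 on the + strand, Alcam at chr16:52453082-52453331 on the - strand, Lama2 at chr10:27616943-27617192 on the - strand and Ckap2l at chr2:129297213-129297462 on the - strand. Capitals mark the Smad-binding core (CAGAC or GTCTG, which are the same letters on the other strand) in the first 3, and the cell cycle homology region (CHR) element (TTTGAA or TTCAAA) in Ckap2l, an element known from promoters of mitotic genes. Neither motif contains the other.
Wnt4: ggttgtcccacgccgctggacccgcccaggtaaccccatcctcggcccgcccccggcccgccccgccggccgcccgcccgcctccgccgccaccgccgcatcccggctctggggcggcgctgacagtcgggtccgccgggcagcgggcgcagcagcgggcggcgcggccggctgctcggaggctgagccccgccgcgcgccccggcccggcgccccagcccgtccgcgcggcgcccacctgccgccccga
Alcam: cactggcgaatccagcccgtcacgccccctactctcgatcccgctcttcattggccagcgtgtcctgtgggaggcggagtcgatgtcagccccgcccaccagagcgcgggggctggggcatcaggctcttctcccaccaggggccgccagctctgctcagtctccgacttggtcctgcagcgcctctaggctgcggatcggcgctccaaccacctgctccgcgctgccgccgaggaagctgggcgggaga
Lama2: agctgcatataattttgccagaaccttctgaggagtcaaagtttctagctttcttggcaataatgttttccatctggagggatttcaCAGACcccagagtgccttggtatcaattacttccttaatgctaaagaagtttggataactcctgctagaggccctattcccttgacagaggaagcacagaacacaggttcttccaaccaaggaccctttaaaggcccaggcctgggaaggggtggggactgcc
Ckap2l: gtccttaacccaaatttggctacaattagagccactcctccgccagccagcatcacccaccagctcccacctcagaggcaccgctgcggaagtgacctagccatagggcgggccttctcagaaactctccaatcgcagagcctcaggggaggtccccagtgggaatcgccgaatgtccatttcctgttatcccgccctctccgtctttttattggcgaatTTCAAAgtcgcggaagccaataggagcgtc
The Wnt4 and Alcam windows held no match. The Lama2 window held 1 CAGAC from base -163 to -159 before the start, and the Ckap2l window held 1 TTCAAA from base -30 to -25. These words are common: the Smad-binding core was in 42.2% of 32851 windows of this length and the CHR element in 16% of them. Counted by gene, at least 1 window held the core in 45.8% of 27025 genes and the CHR element in 18.3%. Of the cell cycle genes listed below, 28 of 37 had a window, 8 of these held the core (28.6%) and 7 the CHR element (25%). The 23 cartilage matrix genes with a window held the core in 14 (60.9%) and the CHR element in 3 (13%), and the 11 TGF-β responsive genes in 8 (72.7%) and 3 (27.3%). Of the genes with the smallest p, the core was in 5 of 9 that were higher (55.6%) and 9 of 13 that were lower (69.2%), and the CHR element in 0 of 9 and 3 of 13 (23.1%). A match describes the letters in the window and is not a bound site.

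Each deposited value is a log2 signal relative to the median of its probe set over the 13 arrays, so values compare arrays and hold no level of a gene, and whether a marker is absent cannot be told. Relative to that median, the mean of 28 cartilage matrix genes lay between 0.02 and 0.78 in the 6 vertebrae arrays and between -1.24 and 0.15 in the 7 IVD arrays. The 36 fibrous matrix genes averaged between -1.04 and 0.13 in vertebrae. In IVD they averaged between 0.33 and 1.01, apart from -0.79 in mutant IVD 3. Control vertebrae 1 stood apart in liver genes, with a mean of 4.71 over 17 genes against -0.31 to 0.13 in the other 5 vertebrae arrays, and in 13 erythroid genes (3.66 against -0.50 to 0.06). Control vertebrae 3 stood apart in 28 neuronal genes, at 1.87 against -0.71 to 0.32. Mutant vertebrae 1 had the widest spread of values, with 16.0% of probe sets more than 1 log2 unit from their median, against 1.56% to 4.63% in the other 12 arrays. Y-linked genes averaged 2.12 and 3.0 in mutant vertebrae 1 and 2 and lay between -0.24 and -0.04 in mutant vertebrae 3 and the controls. The X inactivation RNA Xist was the reverse, at -5.83 and -6.69 in mutant vertebrae 1 and 2 and between -0.04 and 1.81 in the other 4 vertebrae arrays. The 3′ to 5′ log2 ratio of the Gapdh control probe sets, a sign of RNA integrity, was 0.26 higher in mutant vertebrae (exact permutation test, two-sided, p = 0.6), and that of Actb 0.45 higher (p = 0.4). With 3 arrays against 3 this test cannot go below 0.1. Mutant vertebrae 1 stood apart in the Gapdh ratio, at 1.14 against -0.13 to 0.48 in the other vertebrae arrays, but not in the Actb ratio, where control vertebrae 3 was the lowest array at -1.34. In a fit with array weights mutant vertebrae 1 had the lowest weight of the 13 arrays (0.183 against 0.722 to 3.30). The part of RNA quality in the values of this array was not tested. In tissue cut from sections, fewer cells of a type and less RNA per cell cannot be told apart.

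**Figure D1:**
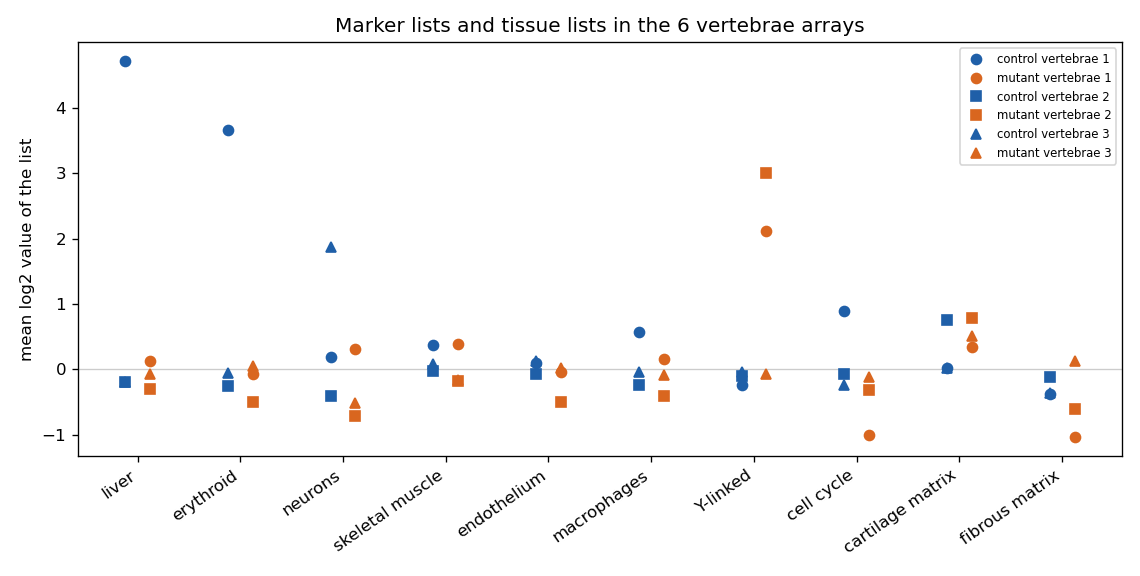
Mean log2 value (vertical axis) of the genes of 10 lists in each of the 6 vertebrae arrays, blue for control and orange for mutant vertebrae, with the array number as the shape. Control vertebrae 1 stands at 4.71 in liver genes, control vertebrae 3 at 1.87 in neuronal genes, and mutant vertebrae 1 and 2 at 2.12 and 3.0 in Y-linked genes.

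No gene passed a test adjusted for the number of genes. In limma's moderated test with Benjamini-Hochberg adjustment, 0 of 45037 probe sets (0%) and 0 of 18244 genes (0%) had an adjusted p under 0.05, and the smallest adjusted p was 0.998 for a probe set and 0.612 for a gene. Without adjustment 1177 probe sets and 462 genes had p under 0.05. Of the genes, 276 (1.51%) were higher and 186 (1.02%) lower in mutant vertebrae. The study built its lists from differences of 2-fold at an analysis of variance p under 0.05. At 2-fold or more with an unadjusted limma p under 0.05, 88 probe sets (0.195%) were higher and 145 (0.322%) lower, whereas the unequal variance test of the methods gave 32 higher and 23 lower. This split depended on the arrays: without mutant vertebrae 1 it was 330 higher and 57 lower, and without control vertebrae 3 it was 72 higher and 297 lower. Quantile normalization of the deposited values, which are relative to the probe set median, gave 105 higher and 79 lower. The median difference over all genes was 0.03, and 10244 of 18244 genes (56.15%) were higher in mutant vertebrae. The 3 mutant arrays all lay above the 3 control arrays in 600 genes (3.29%) and all below them in 378 (2.07%). These shares are the background for each list below, in which "apart" means that the 3 mutant arrays did not overlap the 3 control arrays. Differences are mutant minus control vertebrae on the log2 scale, and none of those below passed the adjusted test.

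The 15 genes with the smallest p in each direction were chosen by that p, so their values describe what led the comparison and their groups were bound to separate. Alx1, a homeobox transcription factor of mesenchyme, had the smallest p. Its probe set read 0.49, 0.14 and -0.13 in the control vertebrae and 1.82, 2.05 and 1.95 in the mutant vertebrae. All mutant arrays lay well above all controls, by 1.78 ± 0.29 (SE, limma adjusted p = 0.998, 3 arrays in each group). The second Alx1 probe set was 0.40 higher, with 0.90 in mutant vertebrae 1 and at most 0.21 in the other mutant arrays. Wnt4, a secreted Wnt ligand known from developing joints, read -0.12, 0.07 and 0.00 in control vertebrae against 1.66, 0.82 and 2.57 in mutant vertebrae. The mutant arrays differed among themselves by more than 3-fold, and mutant vertebrae 3 was the highest. The difference was 1.70 ± 0.40, and over both Wnt4 probe sets it was 1.55. Alcam, a cell adhesion molecule of the immunoglobulin family, read 0.41, -0.24 and 0.05 in control and 0.88, 1.5 and 1.89 in mutant vertebrae, a difference of 1.35 ± 0.28. All 5 of its probe sets were higher in mutant vertebrae. Lama2, the α2 chain of laminin in basement membranes of muscle and nerve, read -0.66, -1.15 and -0.78 in control and 0.33, 0.00 and 0.60 in mutant vertebrae. The difference was 1.17 ± 0.24, and the controls were the low arrays, since the mutant values lay near the probe set median.

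Other leading genes were Terb1, known for tethering telomeres in meiosis, which was higher by 1.24, and Trabd2b, a membrane protease that inactivates Wnt proteins, also higher by 1.24. Tcn2, a carrier of vitamin B12, was 0.90 higher in the leading probe set and 0.58 over its 5 probe sets, all of them higher. The kinase gene Mast4 was 1.0 higher in the leading probe set and 0.35 over its 8 probe sets, of which 7 were higher. The remaining 7 (Tmem8b, Gm20383, Gm28523, Irf5, Slc6a8, Dpm1 and Gm11476) were 0.66 to 1.18 higher. For Irf5 and Dpm1 the second probe set was lower.

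Among the 15 leading lower genes several are known for parts in cell division. Ckap2l, a protein of the mitotic spindle, read 0.46, 0.00 and 0.09 in control vertebrae and -1.07, -0.64 and -0.52 in mutant vertebrae, a difference of -0.93 ± 0.24. Gas2l3, which links actin and microtubules in cytokinesis, read 0.19, 0.25 and 0.00 in control and -2.94, -1.59 and -0.81 in mutant vertebrae. Its 3 probe sets were all lower, and mutant vertebrae 1 was the lowest array of this probe set, with a difference of -1.93 ± 0.52. Cenpp, a centromere protein, was lower by 1.49 (0.93, 0.00 and -0.56 against -1.85, -1.10 and -1.13), with control vertebrae 1 the highest array and mutant vertebrae 1 the lowest. Knstrn, a spindle protein, was lower by 1.10 in the leading probe set, while 2 of its 5 probe sets were higher. Sapcd2, which orients the spindle, was lower by 0.81. Smc6, a subunit of a DNA repair complex of chromosomes, was lower by 1.0 in the leading probe set. All 6 of its probe sets were lower, with a mean difference of -0.44.

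Exosc9, a subunit of the RNA exosome, read 0.51, 0.00 and 0.17 in control and -1.04, -1.56 and -0.87 in mutant vertebrae, a difference of -1.38 ± 0.30. The others were Svip (-2.01), Noct (-1.74), Ppip5k1 (-1.48), Coq3 (-1.24), Tspan13 (-1.02), Knop1 (-0.83), Ydjc (-0.81) and Zdhhc3 (-0.76). Zdhhc3 had 2 of 4 probe sets higher, and the second probe set of Coq3 was 0.07 higher. Knop1 had the smallest p of the lower genes at 0.000326, but 2 of its 3 probe sets were higher. Svip read 1.56 in control vertebrae 1 and -0.97 and -0.94 in the other controls, against -2.50, -1.64 and -2.26 in mutant vertebrae. Svip and Noct thus took much of their difference from control vertebrae 1, the array with liver transcripts: without it their differences were -1.18 and -1.07. Each of the 30 leading genes kept its sign under every one of the 19 alternatives in which its probe set was tested, with Alx1 between 1.63 and 2.18, Wnt4 between 1.26 and 2.31, Alcam between 1.12 and 1.79, Lama2 between 1.02 and 1.46 and Gas2l3 between -2.42 and -1.29. Because their groups did not overlap, leaving out arrays could not turn a sign, and fits that change only the variance keep the difference. The ranges thus describe the size of the differences only.

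**Figure D2:**
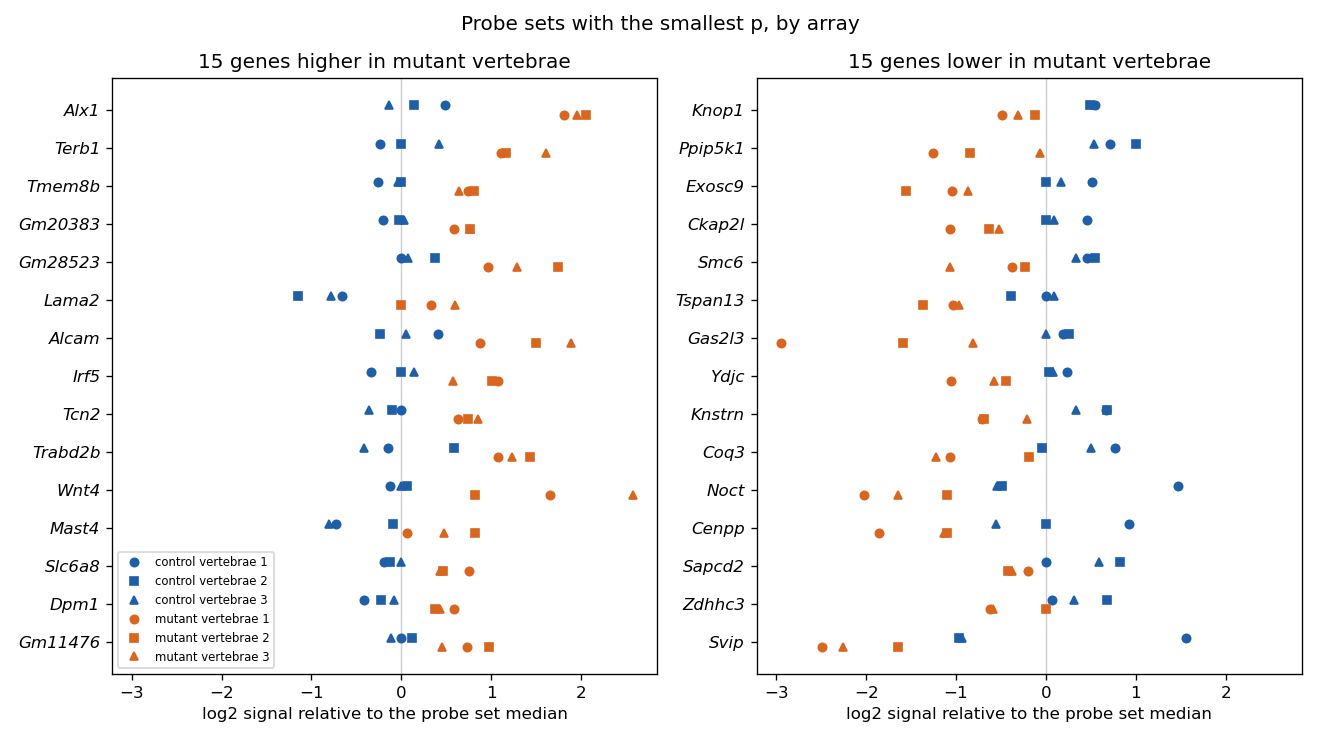
Log2 signal relative to the probe set median (horizontal axis) in each vertebrae array for the 15 genes higher (left) and 15 lower (right) in mutant vertebrae with the smallest p. Blue marks control and orange mutant arrays, and the shape gives the array number. The groups do not overlap in any row because of how the genes were chosen, and Gas2l3, at -2.94, -1.59 and -0.81, has widely spread mutant arrays.

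Tgfbr2 itself did not give a check of the deletion, because which of its exons the probes cover was not known here. Of its 3 probe sets, the one that differed most read 0.00, -0.02 and -0.42 in control vertebrae and -2.10, -0.68 and -0.17 in mutant vertebrae. The groups overlapped and the value rested on mutant vertebrae 1: the difference was -0.84 ± 0.51 (limma adjusted p = 0.998), or -0.28 without that array. The other probe sets differed by 0.13 and -0.01. Of 21 ligands, receptors and Smads of the pathway 14 were higher and 7 lower, with a median of 0.06 (-0.01 without control vertebrae 3) against 0.03 over all genes, and 1 was apart in each direction. The ligand Tgfb2 read -0.46, -0.41 and -0.48 in control and 0.17, 0.38 and 0.38 in mutant vertebrae. Both groups were tight and did not overlap, with a difference of 0.76 ± 0.22 over 4 probe sets (limma adjusted p = 0.999). In IVD the same gene was 0.60 higher in mutants. The other ligands lay lower, Tgfb1 by 0.14 and Tgfb3 by 0.66, in overlapping groups, and the Tgfb3 value of -1.80 in mutant vertebrae 1 was far from the rest. Among receptors, Tgfbr1 was 0.11 higher and the co-receptor Tgfbr3 0.38 higher, both overlapping. Eng, the endothelial co-receptor endoglin, was the member apart and lower, at 0.00, 0.09 and 0.02 against -0.28, -0.62 and -0.07, a difference of -0.36 ± 0.27. Smad4, the common partner of the receptor Smads, was 0.35 higher with groups that overlapped.

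Genes known to respond to TGF-β showed no shared direction. Of 21 measured, 11 were higher and 10 lower, 0 were apart, and the median was 0.02 within a range of -0.44 to 0.54. Skil, a feedback inhibitor of Smads, was lower by 0.42 (-0.20, -0.41 and 0.15 against -0.75, -0.90 and -0.07). Cdkn2b, a cell cycle inhibitor, was 0.54 higher because of mutant vertebrae 1, at 1.6 against -0.04 and 0.18 in the other mutants. Postn and Tgfbi, matrix proteins, were each lower by 0.44 with overlapping groups. Without mutant vertebrae 3 the median of the list was -0.22 and 5 of the 21 were apart and lower (23.8%, against 4.97% of all genes in the same arrays). In those arrays all 4 Y-linked genes were also apart and higher, so genotype and Y-linked signal cannot be told apart there.

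Cell cycle genes were lower in mutant vertebrae in 35 of 37 cases, with a median difference of -0.72. Of the 37, 8 were apart and lower (21.6%, against 2.07% of all genes), the same number had an unadjusted p under 0.05, and 0 passed the adjusted test. Exceptions were the cyclin gene Ccnd2, 0.32 higher, and the kinase gene Cdk2, 0.01 higher. The list mean was 0.89, -0.06 and -0.24 in control vertebrae and -1.01, -0.31 and -0.12 in mutant vertebrae. Control vertebrae 1 was the high array and mutant vertebrae 1 the low array, while control vertebrae 3 lay below mutant vertebrae 3, so the list means overlapped. Without control vertebrae 1 the median was -0.30 and 34 genes were lower, and without mutant vertebrae 1 it was -0.39, again with 34 lower. Without both it was -0.19, with 24 lower and 13 higher. Control vertebrae 1 is the array with liver and erythroid transcripts, and their part in this difference was not tested. Removing array 1 of both groups left 9 of 37 apart and lower (24.3%), when 20.9% of all genes were apart and lower in those 4 arrays. In IVD the median of the same genes was -0.40. The list mean was 0.85, 0.71 and -0.10 in control IVD 1, 2 and 3. Control IVD 1 also stood at 4.54 in liver and 3.50 in erythroid genes, and control IVD 2 at -0.18 in liver genes. Mutant IVD 3 and 4 stood at 2.06 and 2.77 in liver genes. The part of such transcripts in the IVD median was not tested.

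Members differed in how far they rested on these arrays. Tpx2, a spindle assembly factor, read 0.39, 0.01 and 0.26 in control and -0.54, -0.25 and -0.11 in mutant vertebrae. The groups did not overlap and no array was far from its group, with a difference of -0.53 ± 0.20. Bub1, a kinase of the spindle checkpoint, read 1.15, -0.09 and 0.07 against -0.98, -0.41 and -0.35, a difference of -0.96 ± 0.39, with control vertebrae 1 far above the other controls. Nusap1 and Kif11, proteins of the spindle, were lower by 0.74 and 0.76, both apart. Cenpe, a kinesin of the centromere, had the lowest p of the list (0.0205) at -1.27 ± 0.48, but control vertebrae 3 at -0.23 lay within the mutant range. Ccna2, Cdk1, Pcna and Mki67, which mark dividing cells, were lower by 1.07, 1.16, 1.46 and 0.97 and overlapped between groups. Pcna read 1.91 in control vertebrae 1, -0.77 and 0.00 in the other controls and -1.65, -0.71 and -0.87 in mutants. Cell cycle inhibitors and p53 targets were higher in 11 of 17, with a median of 0.03, and 1 was apart (5.88%).

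**Figure D3:**
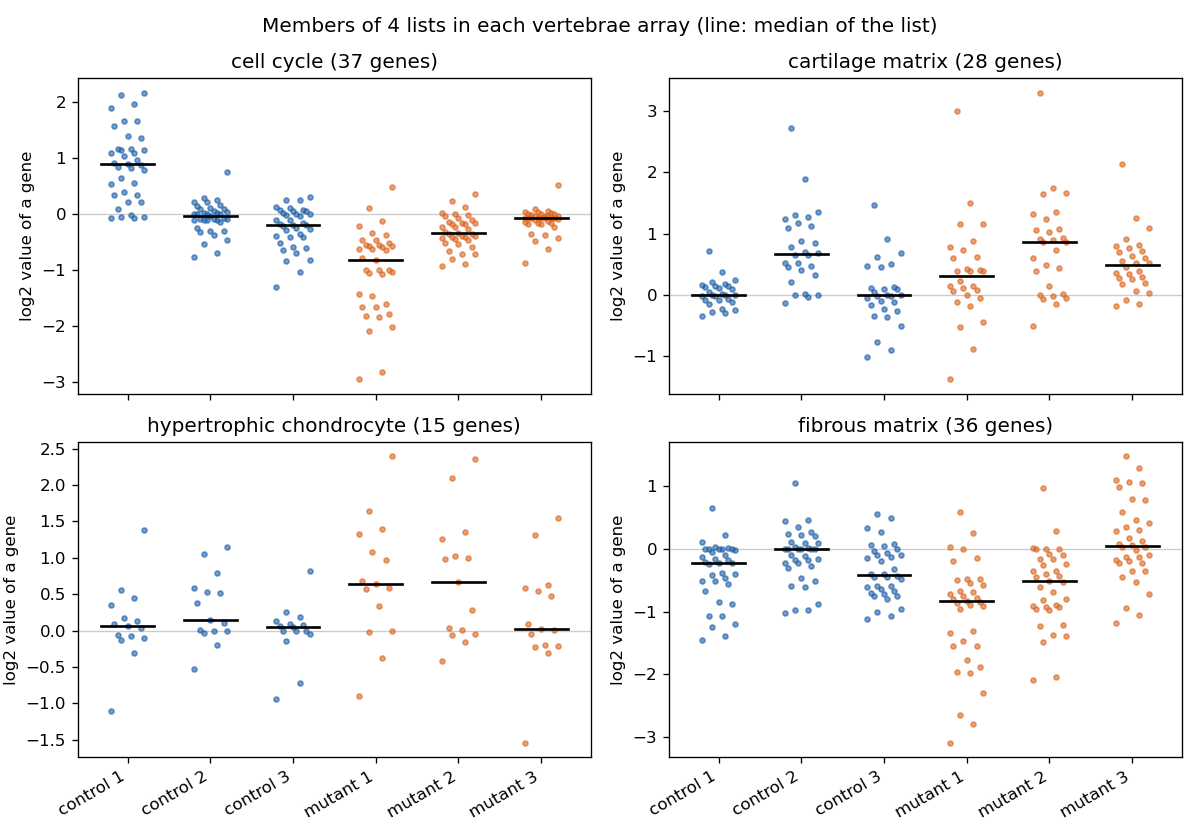
Log2 values (vertical axes) of single genes, each point 1 gene, in the 6 vertebrae arrays for 4 lists, with a black line at the median of the list in that array. Cell cycle genes are highest in control vertebrae 1 and lowest in mutant vertebrae 1, whereas cartilage genes are as high in control vertebrae 2 as in the mutants (list means 0.75 against 0.34, 0.78 and 0.51).

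Cartilage matrix genes were mostly higher in mutant vertebrae, in 26 of 28 cases with a median of 0.32, but this depended on which controls entered. The list mean was 0.02, 0.75 and 0.02 in control and 0.34, 0.78 and 0.51 in mutant vertebrae, so control vertebrae 2 lay among the mutants and the other controls below them. Those others are the arrays with liver and with neuronal transcripts. Without both of them the median was -0.12 and 18 of 28 genes were lower, whereas without control vertebrae 2 it was 0.56. In the latter arrays 15 of 28 were apart and higher (53.6%, against 9.65% of all genes in the same arrays). With all arrays 2 of 28 were apart (7.14%, against 3.29% of all genes). Col2a1, the main collagen of cartilage, read 0.00, 0.20 and -1.02 in control and -0.44, 0.15 and 0.36 in mutant vertebrae. Only control vertebrae 3 stood apart, and the difference of 0.29 ± 0.53 turned to -0.18 without control vertebrae 1 and 3. Acan, the large proteoglycan aggrecan, was 0.27 higher and turned to -0.22 in the same way. The 3 probe sets of Sox9, the transcription factor that drives cartilage formation, were 0.11 to 0.35 higher, and the values of -0.33 and -0.19 without those controls show the same turn for those that differed most. Chst11, a sulfotransferase of chondroitin, was apart at 0.16, 0.40 and -0.11 against 0.42, 0.91 and 0.63, a difference of 0.50 ± 0.25. Comp, a matrix protein of cartilage and tendon, was 1.51 higher in overlapping groups, and it was low in control vertebrae 1 (-0.29) but not in control vertebrae 2 (2.72). The members that were lower were Ucma, a secreted protein of early cartilage, and Chad, a matrix protein that binds cells. Ucma read -0.15, 1.90 and 0.92 in control and -0.53, -0.02 and -0.09 in mutant vertebrae, a difference of -1.10 ± 0.56. The difference of Chad was -0.84 ± 0.52.

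Genes of hypertrophic chondrocytes were higher in 13 of 15 cases with a median of 0.32, and 3 were apart (20%). Ihh, the signal of prehypertrophic chondrocytes, read 0.17, 0.10 and -0.04 in control and 1.64, 0.98 and 0.54 in mutant vertebrae. Every mutant array lay above the tight controls, by 0.97 ± 0.27 (limma adjusted p = 0.999), while in IVD the difference was -0.22. Prkg2, a kinase of chondrocyte maturation, was 1.06 ± 0.59 higher (0.56, 1.05 and 0.19 against 1.32, 2.10 and 1.55), and the transcription factor Mef2c was 0.51 ± 0.27 higher, both apart. Pth1r, the receptor that answers to parathyroid hormone related protein, was 0.62 higher and Panx3, a channel protein, 0.83 higher, both highest in mutant vertebrae 1 and overlapping. Runx2, which promotes hypertrophy, was 0.57 higher and Col10a1, the collagen that defines hypertrophic cartilage, 0.11 higher, with overlapping groups. Col10a1 read 0.97 in mutant vertebrae 1, -0.16 and 0.00 in the other mutants, and 0.83 in control vertebrae 3. Without mutant vertebrae 1, 10 of the 15 genes were higher, and with array weights 9 of 15 with a median of 0.07. The median was 0.19 without control vertebrae 3, 0.56 without control vertebrae 2 and 0.61 without mutant vertebrae 3. Of 13 osteoblast genes 11 were higher with a median of 0.17, which was -0.01 with array weights, and 0 were apart.

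Fibrous matrix genes, which mark the annulus of the IVD, were lower in 25 of 36 cases with a median of -0.15, and 0 were apart. Their mean was -0.37, -0.11 and -0.35 in control and -1.04, -0.61 and 0.13 in mutant vertebrae, so that mutant vertebrae 3 lay above all controls and the other mutants below. Leaving out mutant vertebrae 3 brought the median to -0.45, with 15 of 36 apart and lower (41.7%, against 4.97% of all genes), and leaving out mutant vertebrae 1 brought it to -0.03. Mutant vertebrae 3 was the mutant array low in Y-linked genes, so without it Y-linked genes separated the groups as well. With array weights the median of the fibrous list was 0.08. Fmod, the collagen-binding proteoglycan fibromodulin, had the smallest p of the list. Its 6 probe sets averaged -1.07, 0.45 and -0.32 in control and -2.80, -2.04 and -1.05 in mutant vertebrae. Control vertebrae 1 and mutant vertebrae 3 were at nearly the same value, and the difference was -1.65 ± 0.70 (limma adjusted p = 0.999). In IVD it was -0.91. Tendon genes were lower in 9 of 12 with a median of -0.19, which was -0.06 without mutant vertebrae 1, -0.36 without mutant vertebrae 3 and 0.09 (6 higher, 6 lower) with array weights. The tendon markers Scx and Tnmd differed by 0.03 and -0.08.

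**Figure D4:**
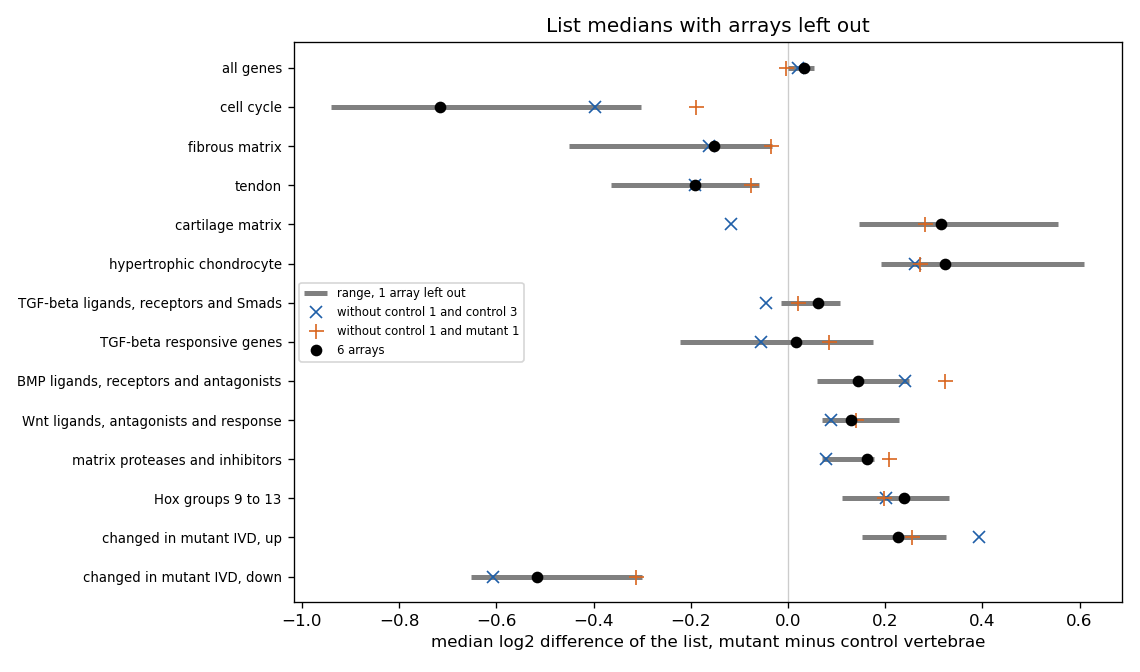
Median log2 difference between mutant and control vertebrae (horizontal axis) for 13 lists and all genes. Dots use the 6 arrays, grey bars span the medians with 1 array left out, and crosses and plus signs leave out pairs of arrays. The cell cycle median runs from -0.94 to -0.30 with 1 array left out, and the cartilage median of 0.32 turns to -0.12 without control vertebrae 1 and 3.

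In the Wnt pathway 22 of 30 genes were higher with a median of 0.13 (0.07 without mutant vertebrae 3 and 0.23 without mutant vertebrae 2), and 4 were apart (13.3%). These were Wnt4 and Wnt5a, which encode ligands, Rspo3, an enhancer of Wnt signals, and Lef1, a transcription factor that Wnt signals induce. Wnt5a read 0.03, -0.14 and -0.09 in control and 0.04, 0.57 and 0.44 in mutant vertebrae, a difference of 0.42 ± 0.19 in which mutant vertebrae 1 hardly differed from control vertebrae 1. Rspo3 was 0.62 ± 0.30 higher and Lef1 0.38 ± 0.19 higher. In the BMP pathway 21 of 30 genes were higher with a median of 0.14, and 2 were apart (6.67%). That median was 0.06 without mutant vertebrae 3 (17 higher, 13 lower), 0.25 without mutant vertebrae 1 and 0.39 with array weights. With the Y-linked or the neuronal mean as a covariate 15 genes were higher and 15 lower. Gdf10, a member of the TGF-β family close to BMP3, read 0.82, -0.72 and 0.00 in control and 1.22, 1.90 and 1.51 in mutant vertebrae, a difference of 1.5 ± 0.56. Bmper, a modulator of BMP signals, was 0.87 ± 0.65 higher. Id2, a target of BMP signals, was 0.79 ± 0.34 higher but overlapped, because control vertebrae 1 (0.02) lay above mutant vertebrae 1 (-0.19).

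Matrix proteases and their inhibitors were higher in 24 of 30 cases with a median of 0.16, with 4 apart and higher (13.3%) and 1 apart and lower, and without mutant vertebrae 3 the median was 0.07 (18 higher). Adamts20, a secreted protease, read -0.24, -0.50 and -0.27 in control and -0.09, 0.36 and 1.48 in mutant vertebrae, a difference of 0.92 ± 0.33. Timp4, an inhibitor of metalloproteinases, was 0.49 ± 0.16 higher, Mmp9, a gelatinase, 0.42 ± 0.18 and Mmp14, a metalloproteinase of the cell membrane, 0.27 ± 0.21. Adamts9, a protease that cleaves aggrecan and versican, was the member apart and lower, at 0.26, -0.01 and 0.03 against -0.65, -0.67 and -0.05, a difference of -0.55 ± 0.29. Its difference in IVD was 0.44.

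At most 2 members were apart in each of the Hox and sclerotome lists. Posterior Hox genes of groups 9 to 13, which set the identity of lumbar and more caudal segments, were higher in 10 of 14 cases with a median of 0.24. Hoxd9 was apart at -0.58, -2.01 and -0.76 against -0.55, 0.13 and 0.34, although control vertebrae 1 and mutant vertebrae 1 were almost equal, and its difference was 1.09 ± 0.45. Hoxd10 was 1.6 ± 0.69 higher, with control vertebrae 2 at -3.30 far below the other arrays. Among groups 5 to 8 the smallest p was that of Hoxc8, lower by 1.38 ± 0.43 with overlapping groups. Of 21 sclerotome transcription factors 12 were higher, the median was 0.09, and 2 were apart (9.52%, against 3.29% of all genes). Ebf1 among them read 0.04, 0.03 and 0.11 in control and 0.36, 1.35 and 0.76 in mutant vertebrae, a difference of 0.76 ± 0.33. Pax1 and Pax9, the transcription factors that define the sclerotome, were lower by 0.29 and 0.18 in overlapping groups.

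Of 29 integrins and immunoglobulin adhesion molecules 10 were higher and 19 lower, with 3 apart and higher (10.3%) and 1 apart and lower (3.45%). Of 22 cadherins and protocadherins 15 were higher and 7 lower, and 1 was apart and higher (4.55%). Among adhesion molecules, Lsamp, an immunoglobulin protein of neurons, read 0.07, 0.06 and 0.03 in control and -1.11, -0.65 and -0.58 in mutant vertebrae. The controls were very close to each other and the difference was -0.83 ± 0.24 (limma adjusted p = 0.999). Pcdh7, a protocadherin, was 0.66 ± 0.18 higher and Ncam1, a neural cell adhesion molecule, 0.37 ± 0.16 higher, both apart. Erg, a transcription factor of joint cartilage and endothelium, read -0.49, 0.02 and -0.25 against -1.88, -1.23 and -0.79, a difference of -1.06 ± 0.36. In the FGF pathway 11 genes were higher and 12 lower, with a median of -0.06. Spry1, a feedback inhibitor of the pathway, was apart with 0.04, 0.03 and 0.05 against -0.32, -0.46 and -0.31, and Dusp1, a phosphatase of MAP kinases, was lower by 1.20 ± 0.56. Fgfr4, a receptor, was 0.31 ± 0.15 higher.

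The markers of liver, blood and neurons moved with single arrays. All 17 liver genes were lower in mutant vertebrae with a median of -1.52, 12 of 13 erythroid genes with a median of -1.31 and 25 of 28 neuronal genes with a median of -0.67. Without control vertebrae 1 the liver and erythroid medians were 0.01 and 0.02, and without control vertebrae 3 the neuronal median was -0.02. Only 1 liver gene and 1 neuronal gene were apart. Skeletal muscle genes were evenly split (12 of 25 higher, median -0.02), with 2 apart and lower (8%), and without mutant vertebrae 1 the median was -0.21 with 9 apart and lower (36%, against 7.65% of all genes). Endothelial genes were lower in 17 of 22 with a median of -0.12 and 2 apart and lower (9.09%), and without mutant vertebrae 2 the median was 0.01. Without mutant vertebrae 1 the endothelial median was -0.20, with 6 apart and lower (27.3%). Schwann cell and neural crest genes were higher in 8 of 12 with a median of 0.15, and 2 were apart (16.7%). Cdh19, a cadherin of Schwann cell precursors, was among them, at 0.00, 0.59 and -0.21 against 0.68, 2.46 and 1.11. Lama2, Ncam1 and Alcam are also made by nerve or muscle cells, and the part of these cells in their values was not tested.

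The study listed genes that differed between mutant and control IVD, and the vertebrae arrays took no part in that choice. In the vertebrae many of these genes differed in the direction listed. Of 106 genes listed as higher in mutant IVD, 76 were higher in mutant vertebrae, 26 were apart and higher (24.5%, against 3.29% of all genes), 0 were apart and lower, and the median was 0.23. Of 64 listed as lower, 56 were lower, 9 were apart and lower (14.1%, against 2.07%), and the median was -0.52. Without Xist and Y-linked genes the counts were 72 of 102 higher with 25 apart, and 55 of 63 lower with 9 apart. With 1 array left out the medians stayed between 0.15 and 0.32 and between -0.65 and -0.30. The 2 tissues do not share arrays but were cut from the same embryos where both were kept, so the comparisons are not independent. Of the 7 mutant arrays of both tissues, 5 were high in Y-linked genes, whereas the mean of these genes lay between -0.24 and -0.04 in every control array. Both comparisons thus carry this imbalance.
Among genes listed as higher, Cadps2, which primes vesicles for release, read -0.39, -1.37 and -0.37 in control and 0.14, 1.19 and 0.99 in mutant vertebrae, a difference of 1.48 ± 0.39. Dtna, a protein of the dystrophin complex, was steady within each group, at 0.16, -0.01 and 0.16 against 0.98, 1.46 and 0.84. BC046401 was 1.0 ± 0.27 higher and the acute phase gene Saa1 1.46 ± 0.57 higher. Among genes listed as lower, Retreg1, a receptor for turnover of the endoplasmic reticulum, read 0.12, 0.07 and 0.12 in control and -0.18, -0.49 and -0.43 in mutant vertebrae. Cdca5, which holds sister chromatids together, was lower by 1.18 ± 0.39, and Ampd3, an enzyme of red cells, by 1.93 ± 0.63, with 2.18 in control vertebrae 1 and 0.06 and 0.05 in the other controls. Kif11 and Lsamp, described above, are also on this list. Smoc2, a calcium-binding matrix protein, was lower by 1.29 ± 0.49, and mutant vertebrae 3 at 0.19 equalled control vertebrae 3.

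**Figure D5:**
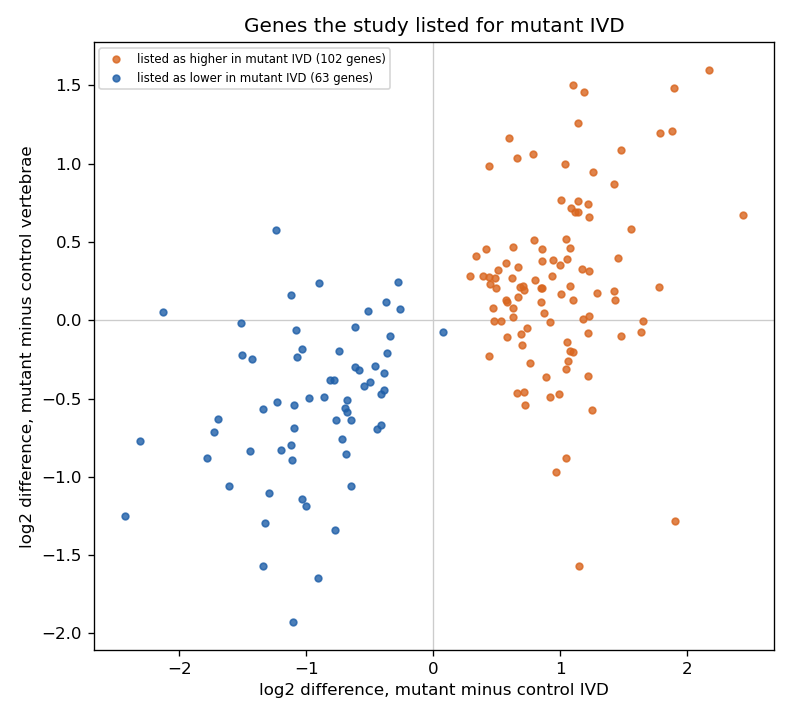
Log2 difference between mutant and control vertebrae (vertical axis) against that between mutant and control IVD (horizontal axis) for genes the study listed in mutant IVD, each point 1 gene, without Xist and Y-linked genes. The horizontal position was used to choose the genes. Of 102 orange points 72 lie above 0, and of 63 blue points 55 lie below 0.

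The study also listed genes that responded when cultured sclerotome cells were given TGF-β1 or BMP4. Genes that TGF-β1 raised in culture were split in mutant vertebrae, 48 higher and 54 lower with a median of -0.01. Of these 102, 6 were apart and lower (5.88%) and 2 apart and higher. Without mutant vertebrae 3, the mutant array low in Y-linked genes, 22 were apart and lower (21.6%, against 4.97% of all genes) and the median was -0.09. Hook1, an adaptor of microtubule transport, was the clearest, at 0.00, -0.32 and -0.01 against -1.20, -1.27 and -0.76, a difference of -0.96 ± 0.26. Erg was on this list too, and Ddah1, an enzyme of the nitric oxide pathway, was lower by 0.56 ± 0.20. Of 64 genes that TGF-β1 lowered, 34 were higher with a median of 0.06 and 5 were apart and higher (7.81%). This direction was lost on leaving out 1 array: the median was -0.05 without control vertebrae 2 and -0.04 without mutant vertebrae 3. In the latter arrays 8 were apart in each direction (12.5%, against 7.2% of all genes higher and 4.97% lower). Abca9, a transporter, read -0.08, -0.04 and -0.06 in control and 0.60, 0.62 and 0.51 in mutant vertebrae, with the smallest scatter of the genes named on this list, a difference of 0.63 ± 0.16. Gdf10 and Ebf1 were on this list, and so was Sned1, a matrix protein that was 0.95 ± 0.47 higher. Of 145 genes that BMP4 raised, 98 were higher with a median of 0.14, 14 were apart and higher (9.66%) and 3 apart and lower. They included Trabd2b (1.0 over both probe sets), Ihh, Timp4, Trmt9b, a methyltransferase relative (0.73 ± 0.23), and Pim3, a kinase (0.47 ± 0.18). Of 148 genes that BMP4 lowered, 94 were lower with a median of -0.11, 6 were apart and lower and 4 apart and higher. Without mutant vertebrae 3, which left only mutants high in Y-linked genes, the median was -0.23 and 31 were apart and lower (20.9%, against 4.97% of all genes). Without control vertebrae 1 the median was -0.03, with 71 higher and 77 lower, and with array weights 0.02.

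Whether the genotype difference in vertebrae departed from that in IVD was tested as an interaction in the same model. No probe set and no gene passed in limma with Benjamini-Hochberg adjustment (0 probe sets and 0 genes, against 619 and 258 at an unadjusted p under 0.05). By the unadjusted p, Tspan13, a tetraspanin of the cell membrane, departed the most among the 30 leading genes. It read 0.00, -0.38 and 0.09 in control vertebrae and -1.03, -1.36 and -0.97 in mutant vertebrae, lower by 1.02, whereas in IVD it was 0.97 higher. Its second probe set was 0.48 lower in mutant vertebrae and 0.56 higher in mutant IVD, with overlapping groups in both tissues. The leading genes were chosen by their p in vertebrae, so the choice itself favours a larger difference there than in IVD. For Terb1 the differences were 1.24 in vertebrae and -0.06 in IVD, and for Alx1 1.78 and 0.51. For Ihh they were 0.97 and -0.22. Hook1, at -0.96 and 0.03, and Hoxc8, at -1.38 and 0.23, were further genes of this kind, and every adjusted interaction p in limma for the genes of this paragraph was 1.0. In contrast Lama2 was higher in both tissues (1.17 and 0.96), as were Gdf10 (1.5 and 1.10) and Ebf1 (0.76 and 1.14), and Erg and Fmod were lower in both.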

How the data were processed

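The authors hybridized amplified RNA of each sample to Affymetrix mouse expression arrays, subtracted background and normalized with RMA in GeneSpring. The deposited log2 values have a median of 0 in every probe set over the 13 arrays. Of 45101 probe sets 64 control probe sets were left out; 34945 carried 1 gene name, 932 several and 9160 none, and 67 of the names came from the study's tables. The 4 groups were modelled with limma 3.58.1 in R 4.3.3 (lmFit, eBayes, two-sided), per probe set and per mean of each gene's probe sets, with Benjamini-Hochberg adjustment. The method was also run on simulated data with independent normal noise of equal spread in all arrays. The arrays here are less even, and the power in these data was not tested. The p-values measure only the spread between arrays, whose small number sets the precision.

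Named were Tgfbr2, sex-linked genes, Col2a1, Acan and Sox9, the 15 genes per direction with the smallest p, up to 4 per list, and up to 6 per direction of the supplementary lists. Further genes were named for their role after their values were seen. The members, the 40 lists (718 of 759 genes measured) and the 6 supplementary lists were chosen with earlier results of these data known. The 19 alternatives covered other fits, normalization, covariates and arrays left out. Same-numbered mutant and control vertebrae arrays did not vary together (r = -0.33, 0.26 and -0.30), so no pairing of genotypes was used. Vertebrae and IVD arrays were also left unpaired in the main fit. Values of 1 further gene are not reported here.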

Additional observations from a re-analysis of the deposited data

Results flagged for a closer look

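The genotype difference of Tspan13 was of opposite sign in the 2 tissues. In the leading probe set mutant vertebrae lay below control vertebrae on every array and mutant IVD above control IVD. This probe set was chosen by its p in vertebrae, which favours a large difference in that tissue. The second probe set differed in the same directions (-0.48 and 0.56), but its groups overlapped in both tissues. For the leading probe set the difference between the tissues was -1.99 on the log2 scale and it did not pass limma's test after adjustment (adjusted p = 1.0).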

How the results depend on the processing

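No probe set or gene was called at an adjusted p under 0.05 under any of the 19 alternatives, with a smallest adjusted p of 0.0785 (genes, limma with array weights). The number of probe sets past 2-fold and an unadjusted p of 0.05 moved more, from 233 (88 higher, 145 lower). It was 55 (32 higher, 23 lower) by the unequal variance test of the methods, 426 (343 and 83) with array weights, 393 (231 and 162) after adjusting for the mean of the Y-linked genes, and 529 (118 and 411) after adjusting for that of the neuronal genes. Quantile normalization of the values relative to the probe set median gave 105 and 79. With 1 array left out the total ran from 199 to 538, the number higher from 72 to 330 and the number lower from 57 to 350. Without control vertebrae 1 it was 99 higher and 100 lower. Without control vertebrae 1 and 3 together the total was 356 (133 and 223), and without control vertebrae 1 and mutant vertebrae 1 together 509 (437 and 72). These pairs were chosen after seeing the data.

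With the array number as a replicate block, 101 were higher and 178 lower, and no call was gained or lost. Same-numbered mutant and control vertebrae did not vary together. A random block of array number within genotype, which joins vertebrae and IVD of 1 number, gave 87 higher and 155 lower (consensus correlation 0.099). Whether such arrays share an embryo is not known. With 1 array left out the Gapdh ratio differed by -0.12 (without mutant vertebrae 1) to 0.49 and that of Actb by -0.033 (without control vertebrae 3) to 0.94. No leading gene changed direction where it was tested, but leaving out arrays could not have changed it, since their groups do not overlap. Of the list medians 881 values under an alternative moved by less than the spread between replicates and 39 by more. The cause of these shifts was not tested.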
